A study of Homo sapiens with 8 samples.

Results

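The region described here is the part of the short arm of human chromosome 3 from 85 to 90 Mb (hg38) that holds EPHA3. Its members are the 253 consensus ATAC-seq peaks, of 159451 in all, whose midpoints lie between those bounds, and 252 of them had enough signal to be tested. ATAC-seq marks open chromatin, because the transposase Tn5 inserts sequencing adapters where DNA is accessible. All libraries were made from A2780, a long-used cell line of human ovarian carcinoma. Each of 4 groups had 2 libraries, 8 in all: untreated control cells, cells made resistant to cisplatin, cells made resistant to paclitaxel, and cells with both resistances (dual-resistant). All groups carry the genotype label WT. The labels give neither the drug exposure at collection nor whether a resistant line is a clone or a pool. Values are CPM, reads scaled so that every library has the same total in peaks, and each pair of values is library 1 and library 2 of a group. The region was selected on the CPM of its peaks, higher in paclitaxel-resistant than in control libraries, so that contrast is described below, and its calls are counted as a description, not as a test of the region.

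EPHA3 encodes an Eph receptor, a receptor tyrosine kinase that binds membrane-anchored ephrins on neighbouring cells. Signals run into the receptor cell and into the ephrin cell, and they guide cell adhesion, repulsion and migration. The other protein-coding genes of the region have unrelated roles. CADM2 encodes a synaptic adhesion molecule, VGLL3 a cofactor of TEAD transcription factors, CHMP2B a subunit of the ESCRT-III membrane remodelling machinery, POU1F1 a pituitary transcription factor and HTR1F a serotonin receptor. CGGBP1 encodes a protein that binds CGG repeats and ZNF654 a zinc finger protein.

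The 5 sequences printed here are those just upstream of starts where the lines differed most or in opposite ways. They come from RefSeq (GRCh38.p14, the same build as hg38) and cover the 250 bases before each start, read 5′ to 3′ on the gene's strand, with CG dinucleotides in capitals. EPHA3 is at chr3:89107371-89107620 (plus strand), VGLL3 at chr3:86991150-86991399 (minus), HTR1F at chr3:87792456-87792705 (plus), POU1F1 at chr3:87276585-87276834 (minus) and the long noncoding RNA gene LOC101927518 at chr3:86658819-86659068 (plus).
EPHA3: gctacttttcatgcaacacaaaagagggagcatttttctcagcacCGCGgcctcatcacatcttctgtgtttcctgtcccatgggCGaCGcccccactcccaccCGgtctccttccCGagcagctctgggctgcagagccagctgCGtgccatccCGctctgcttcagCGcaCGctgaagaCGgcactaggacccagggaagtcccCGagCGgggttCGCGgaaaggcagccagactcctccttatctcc
VGLL3: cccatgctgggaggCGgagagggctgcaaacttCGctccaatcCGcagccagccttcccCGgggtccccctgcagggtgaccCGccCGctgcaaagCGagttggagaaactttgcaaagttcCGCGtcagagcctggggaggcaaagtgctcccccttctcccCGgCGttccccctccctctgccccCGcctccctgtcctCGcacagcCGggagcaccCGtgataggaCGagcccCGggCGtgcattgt
HTR1F: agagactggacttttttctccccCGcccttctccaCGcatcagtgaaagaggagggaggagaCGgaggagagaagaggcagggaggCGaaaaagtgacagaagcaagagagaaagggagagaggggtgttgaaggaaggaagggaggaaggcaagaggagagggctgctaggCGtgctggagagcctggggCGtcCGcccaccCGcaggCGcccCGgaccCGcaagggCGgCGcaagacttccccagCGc
POU1F1: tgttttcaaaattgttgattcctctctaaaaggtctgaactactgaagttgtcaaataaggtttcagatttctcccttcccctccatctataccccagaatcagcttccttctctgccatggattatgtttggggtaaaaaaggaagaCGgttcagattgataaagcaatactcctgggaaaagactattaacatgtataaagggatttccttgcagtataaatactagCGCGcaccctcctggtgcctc
LOC101927518: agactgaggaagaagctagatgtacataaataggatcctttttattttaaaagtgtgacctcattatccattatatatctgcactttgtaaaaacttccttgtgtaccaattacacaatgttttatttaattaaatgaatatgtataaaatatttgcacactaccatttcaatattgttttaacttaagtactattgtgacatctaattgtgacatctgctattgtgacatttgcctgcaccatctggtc
The EPHA3 window held 15 CG dinucleotides at a GC content of 61.2%, the VGLL3 window 18 at 67.6% and the HTR1F window 14 at 62.8%. POU1F1 had 3 at 40.8% and LOC101927518 had 0 at 30.0%. Over all 35116 promoter windows of that length the median was 11 CG dinucleotides and 58% GC. The windows, picked on the values at their starts, are of CG-rich and CG-poor kinds. Of the CG-rich, EPHA3 and VGLL3 were higher and HTR1F lower in paclitaxel-resistant than in control cells, and both CG-poor starts were higher. Letters of 7 motifs were searched on both strands. The AP-1 letters TGANTCA occur in 6.57% of all windows and the TEAD letters GGAATG in 11.9%. The SP/KLF letters GGGCGG occur in 42.6% and the NF-Y letters CCAAT in 32.0%. The ETS letters CCGGAA, which can share bases with the TEAD letters, occur in 14.5%, the TATA box letters TATAAA in 10.7% and the POU octamer ATGCAAAT in 1.63%. EPHA3 had no match to any of them. VGLL3 had 1 SP/KLF and 1 NF-Y match, HTR1F had 3 SP/KLF matches, POU1F1 had 2 TATA box matches, and LOC101927518 had 1 NF-Y and 1 TATA box match.

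Reads in peaks ran from 7693492 to 9304798 per library, so 3 reads, the most that a count of 0 allows, are worth 0.322 to 0.390 CPM (counting error only). Of the 253 peaks, 45 had no read in at least 1 library. As a check of the cell line, 9 of 10 ovarian carcinoma genes had a peak at their start and 2 of them reached 5 CPM in all libraries. In control cells the ovarian carcinoma start peaks averaged from 1.03 CPM (PAX8) to 32.4 CPM (VIM), with EPCAM at 13.7 and EMX2 at 10.1 CPM. MUC16 had no peak. Of other cell types, 0 of 3 endothelial genes and 3 of 4 haematopoietic genes had a start peak, among them SPI1 at 25.7 CPM in control cells, while PTPRC had none. All 3 fibroblast genes and both skeletal muscle genes had one. The fibroblast start peaks summed to 29.7 to 33.4 CPM in control, 63.3 to 67.0 CPM in cisplatin-resistant, 24.9 to 27.0 CPM in paclitaxel-resistant and 40.9 to 42.7 CPM in dual-resistant libraries. COL1A1 (20.4 to 35.7 CPM) and PDGFRB (5.18 to 26.1 CPM) were higher in cisplatin-resistant than in control means and COL1A2 lower (6.02 to 3.32 CPM). The skeletal muscle start peaks summed to 17.9 to 20.7 CPM in control, 7.72 to 9.12 CPM in cisplatin-resistant, 12.3 to 13.4 CPM in paclitaxel-resistant and 15.6 to 18.8 CPM in dual-resistant libraries, and the part of these genes in the results below was not tested. The labels name no separate cultures for the libraries within a group, so the spread between those libraries may be technical. The p-values rest mostly on that spread pooled over all tested peaks and groups, and little on the libraries at a single peak.

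Paclitaxel-resistant cells had 3.53 times the summed signal of control cells over the region. The 253 peaks summed to 498 and 503 CPM in control libraries 1 and 2, to 1770 and 1770 CPM in paclitaxel-resistant, 842 and 858 CPM in dual-resistant and 550 and 562 CPM in cisplatin-resistant libraries. The groups were thus ordered paclitaxel-resistant, dual-resistant, cisplatin-resistant, control, with no overlap between their libraries. Peaks of at least 10 CPM numbered 6 in each control library and 46 and 45 in the paclitaxel-resistant libraries. The median log2 difference of paclitaxel-resistant from control cells was 1.57 over the 252 tested peaks, against -0.14 over all 158698 tested peaks and -0.18 over the 9394 on the rest of chromosome 3. Of the 252, 160 were called higher and 3 lower, where 7.26% of all tested peaks were called higher and 9.17% lower. These calls come from the contrast on which the region was selected, so their number follows from the choice and nothing is read from it. Among the 590 windows of 5 Mb with at least 30 peaks it had the highest median, which is what it was chosen for. Log2 differences are fitted on log2(CPM + 0.5) and understate the change of weak peaks. ATAC-seq reads scale with the number of DNA copies, which was not measured, so more copies of the region and more open chromatin per copy cannot be told apart.

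The raised signal was not even along the 5 Mb. Its log2 differences had an SD of 1.37, rank 30 of the 590 windows, whose median SD was 0.605. The running median over 15 peaks stood at 0.03 near 87.50 Mb, the middle of the region, so a search outward from there found no raised block. Stretches were then defined, after the values were seen, as runs of peaks where the running median of the paclitaxel-resistant difference was at least 0.79, which is 0.5 times the region's median. This gave 3 stretches, a number that depends on the window: a running median over 7 peaks gave 6, over 31 peaks 2 (of which the later ran from 88.41 to 90.09 Mb), a level of 0.25 times the median 4, and the fit without paclitaxel-resistant library 1 also 4. In each of these settings a raised run between 85.96 and 86.79 Mb, and another around EPHA3, were found. The first, chr3:85820987-86970468, holds 65 peaks between the last part of CADM2 and the body of VGLL3. The second, chr3:88219049-88809481, holds 16 peaks. The third, chr3:88996650-89945252 within the bounds, holds 15 peaks before, 63 over and 27 beyond EPHA3, and the remaining 67 peaks lie before and between the stretches.

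**Figure D1:**
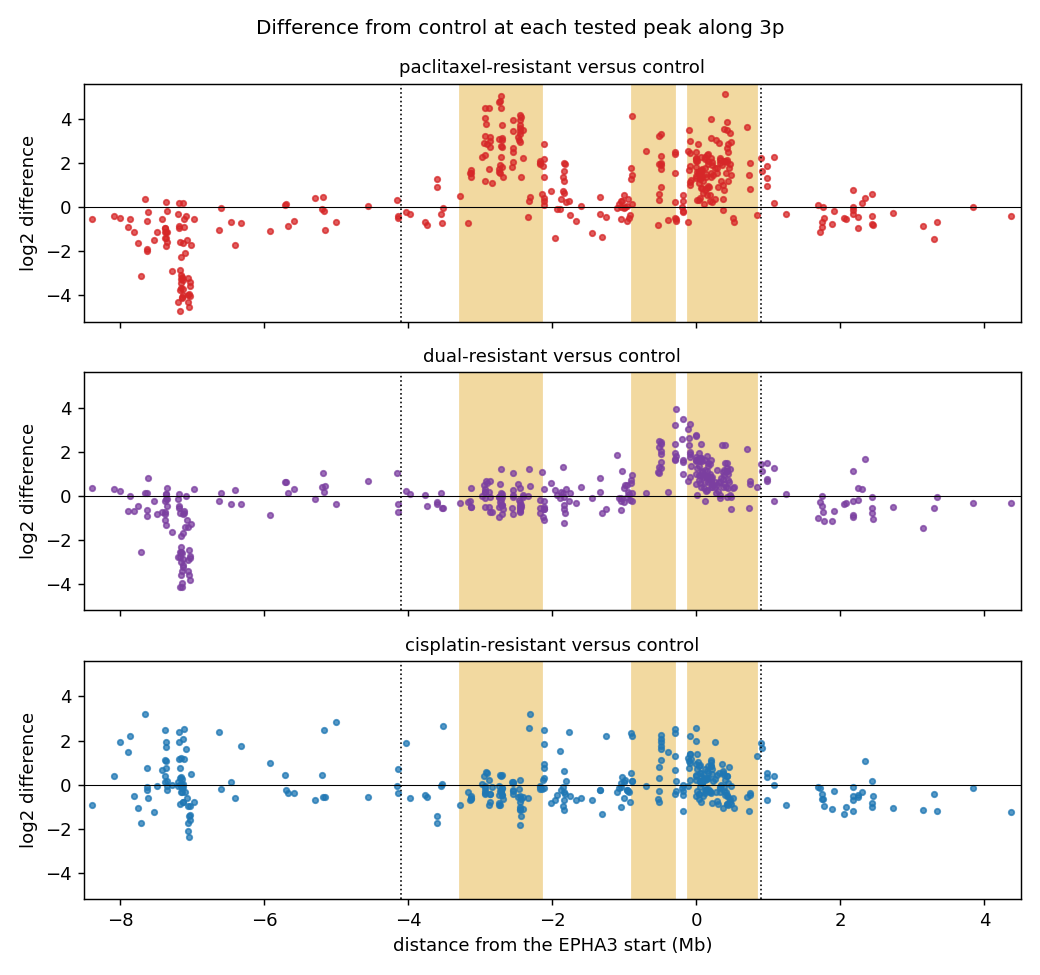
Log2 difference from control (vertical axis) of each tested peak, by distance from the EPHA3 start in Mb (horizontal axis), for the paclitaxel- (top), dual- (middle) and cisplatin-resistant line (bottom). Shading marks the 3 stretches and dotted lines the bounds of the region. Paclitaxel-resistant peaks are high over the first stretch (median 2.73) and the third (1.69), and dual-resistant peaks are near 0 in the first and high from the second to the third.

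The left edge of the signal lay inside CADM2, and the right edge lay just beyond the upper bound of the region. Just inside the left bound, the 3 peaks at chr3:85081034-85082034, chr3:85132866-85133866 and chr3:85342665-85343665 had paclitaxel-resistant differences of -0.22, -0.33 and -0.65. Just outside it, those starting at 84943202, 84958269 and 84964992 lie around the start of the CADM2 span, and the strongest of them gave 29.1 and 29.2 CPM in control against 22.3 and 21.7 CPM in paclitaxel-resistant libraries. It gave 21.5 and 23.7 CPM in cisplatin-resistant and 19.0 and 26.5 CPM in dual-resistant libraries, so every resistant library lay below control there. The other 2 peaks had paclitaxel-resistant differences of 0.32 and -0.51, so the peaks at the left bound lay on both sides of the control level. At the right bound, 5 more peaks beyond 90000000 belonged to the third stretch, which ran on to 90.09 Mb, among them chr3:90010625-90011625 (0.780 and 0.772 CPM in control, 5.22 and 5.84 CPM in paclitaxel-resistant libraries). The last 3 peaks inside, which start at 89849406, 89851624 and 89944252, differed by 1.99, 0.83 and -0.37. In bins of 1 Mb the median paclitaxel-resistant difference was -0.05 from 85 to 86 Mb, 2.73 from 86 to 87 Mb, 0.25 and 0.28 in the next 2 bins, 1.67 from 89 to 90 Mb and 0.09 from 90 to 91 Mb. Farther left the sign varied. From 79 to 80 Mb the median was 0.95 over 40 peaks, with a summed mean of 195 CPM against 92.3 CPM in control cells, while from 81 to 82 Mb the median was -1.45 over 52 peaks, and dual-resistant cells were also lower there, with a median of -0.77 and a summed mean of 145 CPM against 369 CPM in control cells.

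Over the first stretch the paclitaxel-resistant libraries stood far above the other 6. Its 65 peaks summed to 56.7 and 64.9 CPM in control, 687 and 705 CPM in paclitaxel-resistant, 58.2 and 60.5 CPM in dual-resistant and 48.4 and 46.5 CPM in cisplatin-resistant libraries. The mean was 11.5 times control in paclitaxel-resistant, 0.977 times in dual-resistant and 0.781 times in cisplatin-resistant cells. The dual-resistant libraries lay within the range of the control libraries, and the cisplatin-resistant libraries lay below it. Most of the stretch is intergenic: 56 peaks are outside protein-coding genes and 12 are in long noncoding RNA genes. The 6 tested peaks in CADM2 had a smaller paclitaxel-resistant median, 1.45, than the stretch as a whole, 2.73.

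The single peaks of the first stretch named here were at most 2.45 CPM in control cells and 19.2 CPM or more in paclitaxel-resistant cells. The peak at chr3:86661433-86662433, inside LOC101927518, gave 2.08 and 2.45 CPM in control, 34.7 and 37.6 CPM in paclitaxel-resistant, at most 2.10 CPM in dual-resistant and 0.225 and 0.351 CPM in cisplatin-resistant libraries. It fell in cisplatin-resistant cells (log2 difference -1.81, SE 0.34, limma adjusted p = 6.78e-06). At the start of LOC101927518 (chr3:86658468-86659468), whose CG-free upstream sequence is printed above, the peak gave 1.82 and 0.901 CPM in control and 22.3 and 19.2 CPM in paclitaxel-resistant libraries. Dual-resistant libraries gave 0.989 and 0.752 CPM there and cisplatin-resistant libraries 0.225 and 0.585 CPM. Only the paclitaxel-resistant libraries stood above 2 CPM at that start. The intergenic peaks chr3:86388416-86389416, chr3:86378878-86379878, chr3:86368517-86369517 and chr3:86178578-86179578 had the largest paclitaxel-resistant differences of the stretch, 5.01, 4.81, 4.75 and 4.49. At the first of these, control libraries gave 0.390 and 0.386 CPM and paclitaxel-resistant libraries 29.0 and 27.1 CPM.

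**Figure D2:**
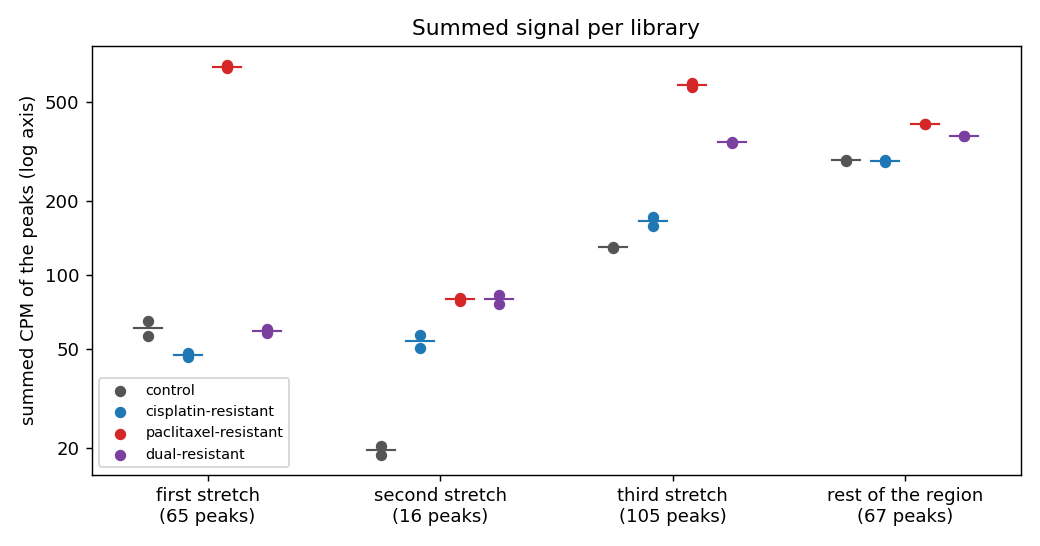
Summed CPM of the peaks (vertical axis, log scale) in the 3 stretches and the rest of the region, one point per library and a line at each group's mean. In the first stretch the paclitaxel-resistant libraries (687 and 705 CPM) stand far above all others, in the second all 3 resistant lines stand above control, and in the third the dual-resistant libraries (344 and 347 CPM) lie between the paclitaxel- and the cisplatin-resistant ones.

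The second stretch, a short and mostly intergenic run between CGGBP1 and EPHA3, was higher than control in all 3 resistant lines. Its 16 peaks summed to 20.4 and 18.7 CPM in control, 50.8 and 57.2 CPM in cisplatin-resistant, 78.8 and 80.9 CPM in paclitaxel-resistant and 76.0 and 83.3 CPM in dual-resistant libraries. No resistant library overlapped the control libraries, and the paclitaxel- and dual-resistant libraries overlapped each other. Against control, 9 of the 16 peaks rose and 0 fell in cisplatin-resistant cells, where 18.3% of all tested peaks rose and 14.9% fell. In dual-resistant cells 12 rose and 0 fell, where 8.11% of all tested peaks rose and 5.39% fell. The comparisons of the resistant lines with control share the control libraries with each other and with the contrast that chose the region. The peak at chr3:88615907-88616907, chosen after its values were seen, shows the pattern, with 1.43 and 1.03 CPM in control, 7.77 and 7.72 CPM in cisplatin-resistant, 14.3 and 18.4 CPM in paclitaxel-resistant and 7.30 and 10.7 CPM in dual-resistant libraries.

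Between the second and the third stretch lie 11 peaks where dual-resistant cells were high and paclitaxel-resistant cells were not. They summed to 12.0 and 12.4 CPM in control, 19.8 and 19.6 CPM in cisplatin-resistant, 18.3 and 18.4 CPM in paclitaxel-resistant and 89.6 and 91.9 CPM in dual-resistant libraries. The dual-resistant mean was 7.47 times control. Of the 11 peaks, 9 rose against control and 10 against cisplatin-resistant cells, and 0 fell in either comparison. Over all tested peaks 8.11% rose and 5.39% fell in the first comparison and 21.9% rose and 19.9% fell in the second. This gap was looked at after its values were seen. It was drawn where the running median of the paclitaxel-resistant difference was low, so the low paclitaxel-resistant level follows from its definition. The peak at chr3:88824524-88825524 gave 20.5 and 21.5 CPM in dual-resistant libraries, 0.910 and 0.901 CPM in control, 1.01 and 1.17 CPM in cisplatin-resistant and 0.607 and 0.337 CPM in paclitaxel-resistant libraries (dual-resistant minus cisplatin-resistant 3.76, SE 0.40, limma adjusted p = 7.38e-14). A like pattern held at chr3:88918652-88919652, with 16.7 and 14.2 CPM in dual-resistant libraries and at most 2.14 CPM in the others (3.49, SE 0.39, adjusted p = 1.15e-12). In the second stretch, chr3:88583686-88584686 rose in dual- over cisplatin-resistant cells from 0.113 and 0.702 CPM to 5.32 and 7.31 CPM (2.97, adjusted p = 2.47e-08).

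Around EPHA3, paclitaxel- and dual-resistant cells were both high and cisplatin-resistant cells were closer to control. The peaks of the third stretch summed to 130 and 129 CPM in control, 158 and 172 CPM in cisplatin-resistant, 596 and 576 CPM in paclitaxel-resistant and 344 and 347 CPM in dual-resistant libraries. Relative to control the means were 1.28, 4.53 and 2.67 times as high. No group overlapped another. The 63 peaks over the EPHA3 gene (chr3:89107621-89482134) summed to 87.1 and 83.5, 98.3 and 103, 293 and 285, and 190 and 195 CPM in the same order.

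At the start of EPHA3 all 3 resistant lines were above control. The peak there (chr3:89107242-89108242), which contains the printed upstream sequence, gave 9.36 and 6.69 CPM in control, 16.7 and 14.7 CPM in cisplatin-resistant, 28.7 and 29.1 CPM in paclitaxel-resistant and 23.4 and 27.8 CPM in dual-resistant libraries. The order was the same as for the summed signal, with no overlap between groups. It rose in cisplatin-resistant cells by 0.94 (SE 0.16, limma adjusted p = 1.60e-06) and in dual-resistant cells by 1.63 (SE 0.16, adjusted p = 2.05e-14) on the log2 scale. The dual-resistant level was also above the cisplatin-resistant level (0.69, SE 0.16, adjusted p = 0.000344), and the paclitaxel-resistant difference from control was 1.80. A second strong EPHA3 peak close by, at chr3:89114097-89115097 inside the gene, behaved otherwise: it gave 21.4 and 18.4 CPM in control, 17.2 and 15.2 CPM in cisplatin-resistant, 26.7 and 23.8 CPM in paclitaxel-resistant and 19.8 and 21.1 CPM in dual-resistant libraries. It was the strongest EPHA3 peak in control cells, and none of the 3 tested comparisons called it (adjusted p from 0.0738 to 0.915). Just before the start, chr3:89104884-89105884 went from 0.130 and 0.772 CPM in control to 5.40 and 4.33 CPM in cisplatin-resistant, 5.58 and 3.71 CPM in paclitaxel-resistant and 5.07 and 6.23 CPM in dual-resistant libraries. Its level rose in cisplatin-resistant (2.58, adjusted p = 2.77e-09) and dual-resistant cells (2.77, adjusted p = 4.04e-10).

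**Figure D3:**
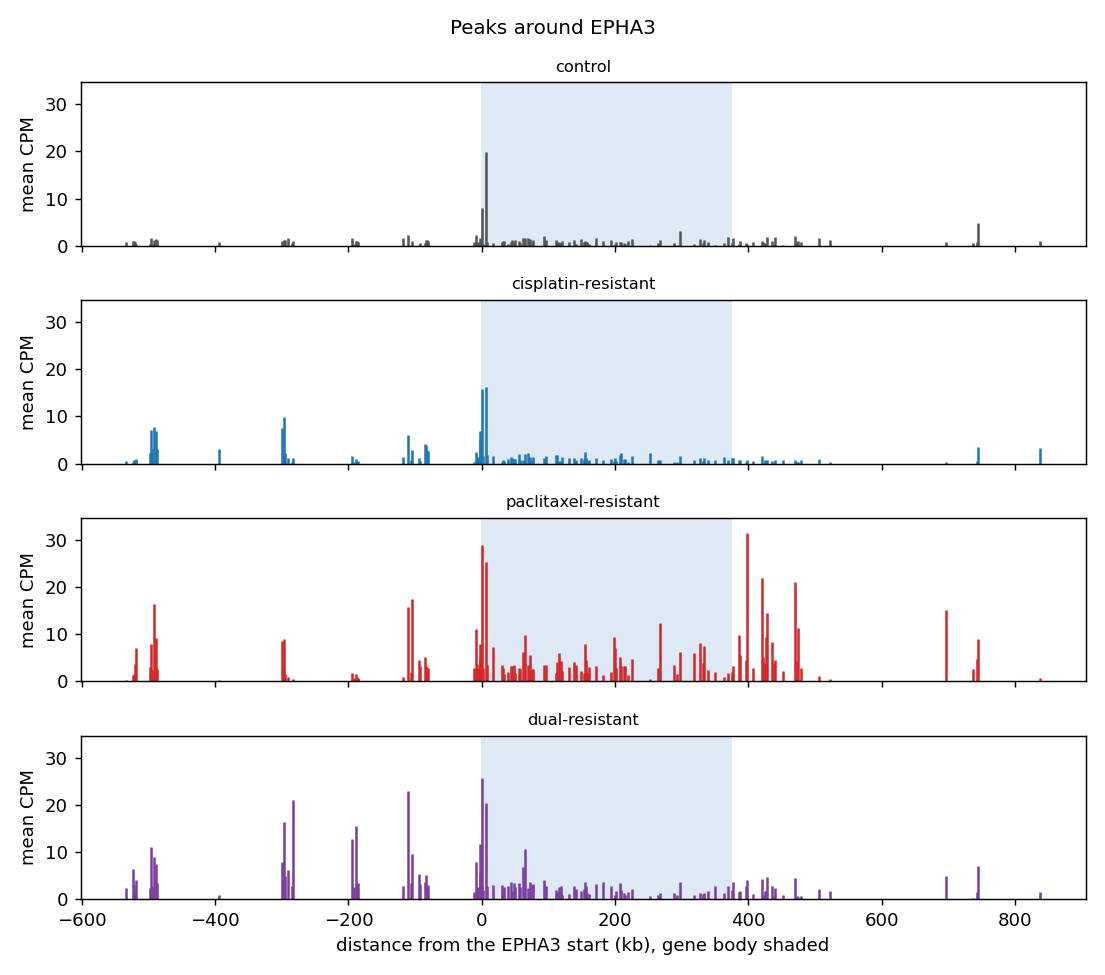
Mean CPM of each peak (vertical axis, 2 libraries per group) by distance from the EPHA3 start in kb (horizontal axis), with the gene body shaded. The strong peak just inside the gene is present in all groups (control mean 19.9 CPM), the tall peaks beyond the gene's end stand out in paclitaxel-resistant cells (up to 31.4 CPM), and the tallest peak before its start is in dual-resistant cells (mean 22.8 CPM).

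The 3 lines differed in different ways before, over and beyond EPHA3. Before the start, the 15 peaks of the third stretch had median log2 differences from control of 1.06 (cisplatin-resistant), 2.10 (paclitaxel-resistant) and 1.92 (dual-resistant), with 9 and 12 peaks called higher and 0 lower in the first and the last. Over the gene's 63 peaks the medians were 0.18, 1.56 and 0.85, and 6 peaks rose and 1 fell in cisplatin-resistant and 22 rose and 0 fell in dual-resistant cells. Over all tested peaks 18.3% rose and 14.9% fell in cisplatin-resistant and 8.11% rose and 5.39% fell in dual-resistant cells, so the 9.52% that rose over the gene in cisplatin-resistant cells is below the share of all peaks. The gene's median peak was weak, 0.780 and 0.901 CPM in control and 1.01 and 1.05 CPM in cisplatin-resistant libraries. Nothing is read from that smaller share. Beyond the gene's end, the 27 peaks had medians of -0.44, 2.02 and 0.67. Those 27 peaks summed to a mean of 29.5 CPM in control, 21.0 and 24.6 CPM in cisplatin-resistant, 210 and 204 CPM in paclitaxel-resistant and 63.1 and 61.8 CPM in dual-resistant libraries. Relative to control, paclitaxel-resistant means were 7.02 times and dual-resistant means 2.12 times as high there, against 3.39 and 2.26 times over the gene. Paclitaxel- and dual-resistant cells were not compared by a test.

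The tallest peak beyond the gene was chr3:89504359-89505359, which had the largest paclitaxel-resistant difference of the region (5.10). It gave 0.260 and 0.644 CPM in control, 0.225 and 1.17 CPM in cisplatin-resistant, 32.8 and 30.1 CPM in paclitaxel-resistant and 3.34 and 4.94 CPM in dual-resistant libraries. The dual-resistant libraries lay above control and cisplatin-resistant ones and far below the paclitaxel-resistant ones (dual- minus cisplatin-resistant 2.05, SE 0.36, limma adjusted p = 1.22e-06). Of the 27 peaks beyond the end, 24 had paclitaxel-resistant differences above 0. The peak starting at 89944252 went otherwise, with 3.15 and 3.62 CPM in cisplatin-resistant and 1.09 and 0.450 CPM in paclitaxel-resistant libraries. Another peak beyond the end, named after its values were seen, followed the order of the tallest peak at lower height. At chr3:89803944-89804944 control libraries gave 1.04 and 0.515 CPM, cisplatin-resistant 0.113 and 0.702 CPM, paclitaxel-resistant 14.9 and 15.3 CPM and dual-resistant 4.95 and 4.94 CPM. Of 2 peaks inside EPHA3, also chosen that way, chr3:89171726-89172726 was level between paclitaxel-resistant (9.83 and 9.78 CPM) and dual-resistant libraries (11.6 and 9.78 CPM), above control (1.43 and 1.93 CPM) and cisplatin-resistant libraries (1.46 and 2.57 CPM). Farther into the gene, chr3:89305757-89306757 was highest in paclitaxel-resistant libraries (9.35 and 9.44 CPM, against at most 0.935 CPM in the other 6).

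The comparison of dual- with cisplatin-resistant cells shares no library with the contrast that chose the region. Its share of called peaks differed between the stretches. In the third stretch 50 peaks, 47.6% of those tested, rose in dual- over cisplatin-resistant cells and 1 fell, where 21.9% of all tested peaks rose and 19.9% fell. Their median difference was 0.83, against 0.16 over all tested peaks. Over EPHA3 alone 29 of 63 rose and 1 fell (median 0.79). In the first stretch, where the paclitaxel-resistant signal was highest, 7 of 64 rose and 2 fell, a smaller share than over all peaks, with a median of 0.16. Its median peak was weak in both lines, 0.450 and 0.468 CPM in cisplatin- and 0.495 and 0.645 CPM in dual-resistant libraries. The third stretch had 1.01 and 1.05 CPM and 2.35 and 2.36 CPM. Few calls can be made at the levels of the first stretch, so nothing is read from its smaller share. The second stretch had 6 of 16 higher and 1 lower (median 0.40), and the peaks outside the stretches 19 of 67 higher and 12 lower (0.40). Over the whole region the count was 82 higher and 16 lower (median 0.50). Without cisplatin-resistant library 1 the counts of higher peaks were 53 over the region and 4, 3 and 30 in the 3 stretches, and without dual-resistant library 1 the third stretch had 32. All-peak medians moved with the scaling: under median-ratio scaling that of dual- minus cisplatin-resistant went from 0.16 to -0.00, and 52.5% of all calls being higher became 40.1%, with 38 higher peaks in the third stretch.

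**Figure D4:**
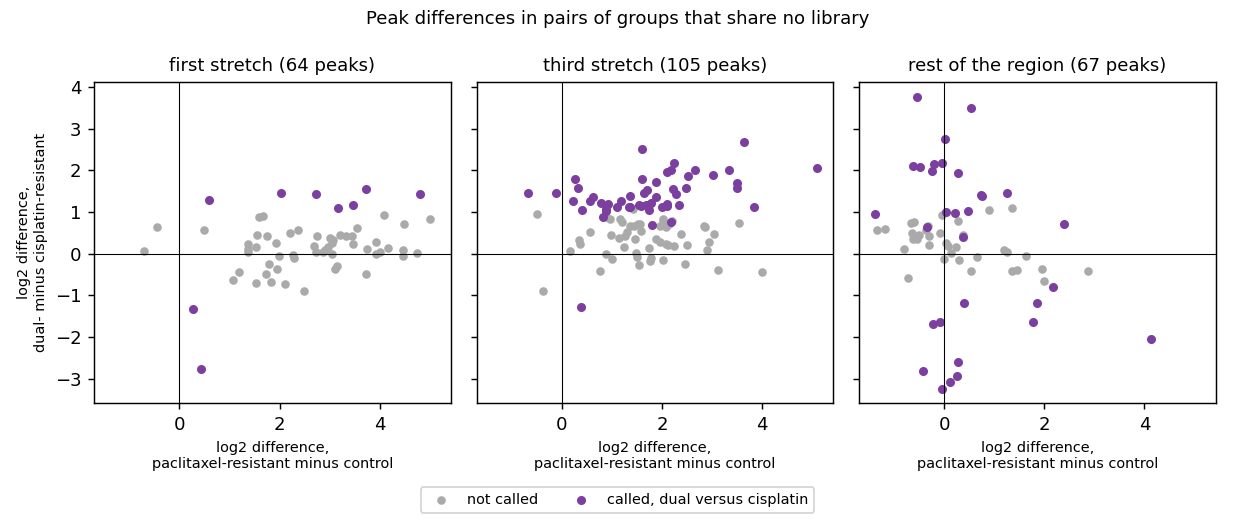
Each point is a tested peak: its log2 difference of paclitaxel-resistant from control cells (horizontal axis) and of dual- from cisplatin-resistant cells (vertical axis), 2 comparisons with no library in common. In the third stretch most points lie above 0 on the vertical axis (93 peaks). In the first stretch, whose peaks were mostly weak in dual- and cisplatin-resistant cells, most lie close to 0. The rest of the region holds called peaks in both directions.

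The 2 differences, of paclitaxel-resistant from control cells and of dual- from cisplatin-resistant cells, showed almost no correlation over the region's 252 tested peaks (Pearson's r 0.029, Spearman's rho -0.036). Within its parts the correlation was weak and of either sign, which is given as a description. Pearson's r and Spearman's rho were 0.19 and 0.12 over the third stretch and 0.30 and 0.24 over the 64 of the first. They were -0.16 and -0.22 over the 16 of the second, -0.25 and -0.27 over the 67 outside, and 0.11 and 0.04 over all tested peaks. Peaks are not independent replicates, and those of 1 library share its depth.

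The region's cisplatin-resistant median was close to that over all peaks and below that of the rest of chromosome 3. Smaller shares of its peaks were called, in both directions, than over all peaks. Its median peak was weak, 0.910 and 0.901 CPM in control and 1.01 and 1.05 CPM in cisplatin-resistant libraries. Calls are harder to make at such levels, so nothing is read from the smaller shares. Of the 252 peaks, 38 rose and 14 fell against control, shares of 15.1% and 5.56% beside 18.3% and 14.9% over all tested peaks, and the median was -0.12 beside -0.09. On the rest of chromosome 3 the median was 0.15, with 24.1% higher and 9.53% lower, and with that median subtracted 28 peaks of the region were lower. The region's median turned to 0.0073 without control library 2 and to 0.00684 without cisplatin-resistant library 1. Leaving out cisplatin-resistant library 2 left 24 higher peaks. In the first stretch 2 rose and 5 fell, with a median of -0.32. In the third, 16 rose and 2 fell (0.18), and 9 of these 16 lay before the EPHA3 start. Dual-resistant cells had 69 peaks higher (27.4%) and 2 lower (0.794%) than control over the region, beside 8.11% and 5.39% over all tested peaks, and 44 higher without control library 1 or without dual-resistant library 2. Over all tested peaks, the share of calls that were higher moved with the scaling. It was 55.1% in cisplatin-resistant cells (64.0% under median-ratio and 47.9% under quantile scaling), 60.0% in dual-resistant cells (46.4% with edgeR) and 44.2% in paclitaxel-resistant cells (61.4% under median-ratio scaling).

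Some isolated peaks were highest in cisplatin-resistant libraries. At chr3:86793503-86794503, inside the first stretch, cisplatin-resistant libraries gave 8.55 and 4.33 CPM (3.21 over control, SE 0.49, limma adjusted p = 5.64e-08). The other 3 groups gave at most 0.752 CPM there, with 0.607 and 0.337 CPM in paclitaxel-resistant libraries, so not every peak of that stretch was raised. In CADM2, chr3:85588866-85589866 gave 6.19 and 4.21 CPM in cisplatin-resistant libraries and at most 0.515 CPM in the others (2.68 over control, adjusted p = 5.74e-06). Around VGLL3, chr3:86995460-86996460 gave 6.30 and 5.96 CPM and chr3:86987679-86988679 gave 5.29 and 4.21 CPM in these libraries. Both fell in dual- against cisplatin-resistant cells, by 3.07 (adjusted p = 2.82e-08) and by 2.94 (adjusted p = 1.07e-07) on the log2 scale. The opposite occurred at another CADM2 peak, chr3:85504075-85505075, with 10.1 and 10.8 CPM in control, 3.04 and 2.57 CPM in cisplatin-resistant, 29.0 and 22.7 CPM in paclitaxel-resistant and 8.28 and 8.92 CPM in dual-resistant libraries. It fell in cisplatin-resistant cells by 1.73 (SE 0.21, adjusted p = 6.40e-11), and the dual-resistant level was close to control.

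The gap between the first and the second stretch holds most gene starts of the region and its strongest peaks. The VGLL3 start peak, counted in this gap, lies at its left edge. It fell in the first raised run with a running median over 31 peaks, at 0.25 times the median and without paclitaxel-resistant library 1. The 47 peaks of the gap summed to 247 to 253 CPM in the control, cisplatin-resistant and dual-resistant libraries and to 349 and 353 CPM in the paclitaxel-resistant libraries. The paclitaxel-resistant mean was 1.39 times control, against 11.5 times in the first stretch. The stretches were drawn on this difference, so the smaller ratio in the gap follows from that choice. The gene starts did not move together. VGLL3 and POU1F1 were high in paclitaxel-resistant cells, and HTR1F was low in all 3 lines. The strongest peaks lie at an end of the ZNF654 span and where the spans of CGGBP1 and C3orf38 meet. No start is listed for these genes, so these ends may be their starts. The peaks had paclitaxel-resistant differences of -0.00 and 0.07, in that order.

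VGLL3 had opposite values in the paclitaxel- and dual-resistant lines. Its start peak (chr3:86990800-86991800) gave 8.32 and 8.24 CPM in control, 10.4 and 10.4 CPM in cisplatin-resistant, 38.2 and 39.6 CPM in paclitaxel-resistant and 5.69 and 5.80 CPM in dual-resistant libraries. The paclitaxel-resistant libraries stood above and the dual-resistant libraries below all others. The dual-resistant level was below the cisplatin-resistant level (-0.80, SE 0.19, limma adjusted p = 0.000281). Against control its difference of -0.49 was not called (adjusted p = 0.0695), while median-ratio scaling (-0.56), quantile scaling (-0.61), edgeR (-0.62) and subtraction of the chromosome 3 median (-0.68) each gave a call. POU1F1, at chr3:87275971-87276971, gave 1.17 and 1.54 CPM in control, 0.675 and 1.17 CPM in cisplatin-resistant, 6.07 and 7.30 CPM in paclitaxel-resistant and 0.371 and 0.860 CPM in dual-resistant libraries. Only the paclitaxel-resistant libraries were clear of the others, and no test of the other lines gave a call.

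HTR1F was the listed start inside the region that was lower in every resistant line. Its peak (chr3:87792585-87793585), which covers part of the printed window, gave 12.0 and 13.6 CPM in control, 4.39 and 5.26 CPM in cisplatin-resistant, 4.37 and 5.06 CPM in paclitaxel-resistant and 5.94 and 9.14 CPM in dual-resistant libraries. All resistant libraries lay below both control libraries. It fell in cisplatin-resistant cells by 1.32 (SE 0.25, limma adjusted p = 6.07e-06). The dual-resistant fall of 0.75 (adjusted p = 0.0253) was no longer called without control library 1 (-0.84), control library 2 (-0.66) or dual-resistant library 1 (-0.46). The paclitaxel-resistant difference was -1.35, among the 5 lowest of the region with chr3:87145419-87146419 in LINC00506 (-1.38), chr3:87652849-87653849 (-1.19), chr3:85360629-85361629 in CADM2 (-0.81) and chr3:88573828-88574828 (-0.81). In POU1F1, chr3:87264028-87265028 was lower than control in dual-resistant cells (-1.20, adjusted p = 0.0298), a call lost with a pseudocount of 0.1 (-1.47) and without any 1 of the control or dual-resistant libraries (-1.38 to -1.03).

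CHMP2B differed little between the lines. Its start peak (chr3:87226988-87227988) gave 27.7 and 27.4 CPM in control, 22.6 and 23.9 CPM in cisplatin-resistant, 36.1 and 36.0 CPM in paclitaxel-resistant and 27.1 and 35.0 CPM in dual-resistant libraries. The dual-resistant libraries differed more between themselves than the control libraries did. The rise of 0.40 over cisplatin-resistant cells (limma adjusted p = 0.00943) was not called under median-ratio scaling (0.21), with edgeR (0.25), without cisplatin-resistant library 1 (0.36) or without dual-resistant library 2 (0.22). ZNF654, CGGBP1 and C3orf38 have no listed start or strand, so the ends of their spans may be their starts. The peak at the lower-coordinate end of the ZNF654 span (chr3:88058631-88059631) gave 64.2 and 57.0 CPM in control and 58.6 and 62.0 CPM in paclitaxel-resistant libraries. It gave 56.3 and 56.5 CPM in cisplatin-resistant and 49.3 and 53.5 CPM in dual-resistant libraries, and no comparison tested on it gave a call. The peak where the spans of CGGBP1 and C3orf38 meet is chr3:88149311-88150311. It gave 55.0 and 52.5 CPM in control and 45.6 and 44.4 CPM in cisplatin-resistant libraries. Paclitaxel-resistant libraries gave 59.5 and 53.5 CPM there and dual-resistant libraries 54.3 and 48.7 CPM. Its cisplatin-resistant fall of 0.25 (adjusted p = 0.0449) was lost under median-ratio (-0.14) or quantile scaling (-0.13), with edgeR (-0.18), with a pseudocount of 0.1 (-0.26) and without any 1 of the control, cisplatin- or paclitaxel-resistant libraries (-0.29 to -0.22). CSNK2A2IP had no peak at either end.

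**Figure D5:**
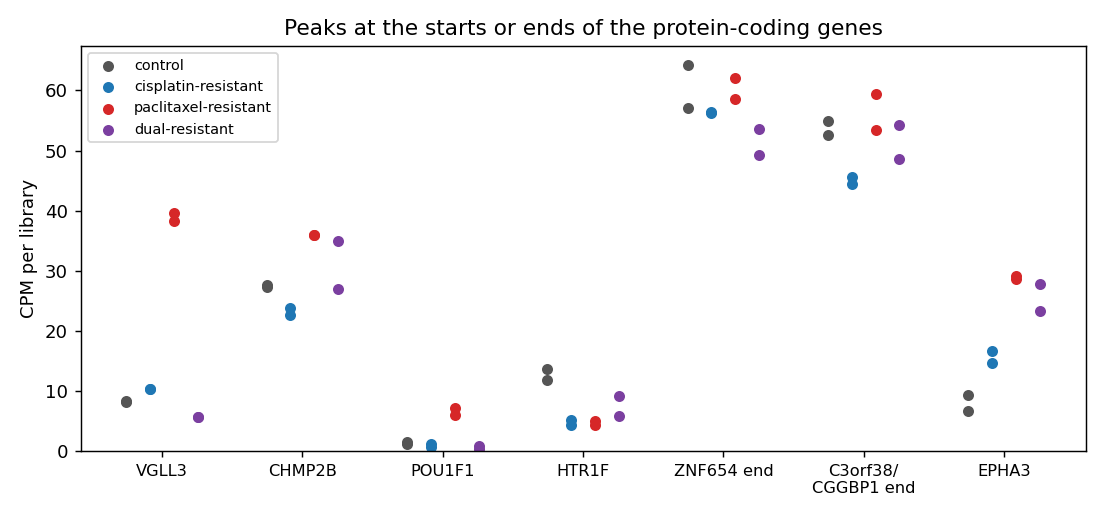
CPM per library (vertical axis) of the peak at the start of each protein-coding gene (horizontal axis), 2 points per group. Where no start is listed, the peak at an end of the gene's span is shown. CADM2, whose peak lies just outside the lower bound, is left out. The word end on the axis marks these, and such an end may be the gene's start. VGLL3, POU1F1 and EPHA3 are high in paclitaxel-resistant libraries, HTR1F is low in all resistant libraries, and ZNF654 and C3orf38/CGGBP1 stay between 44.4 and 64.2 CPM in all 8.

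Members also differed by location and strength, but location went with stretch. Of the 146 peaks outside protein-coding genes 56 lie in the first stretch, and of the 98 inside such genes 62 lie in the third. The part of stretch in the values by location was not tested. The 9 peaks at gene starts or ends had a median paclitaxel-resistant difference of 1.35, the 97 tested peaks inside protein-coding genes also 1.35, and the 146 outside genes 1.95. Split by control level into 3 classes of 84 peaks, the median was highest in the weakest class, 1.39 in the middle class and 0.69 in the strongest, where control values enter both the order and the difference. In dual- against cisplatin-resistant cells, which use no control library, the medians ran the other way: 0.26, 0.53 and 0.61. Each consensus peak is named after a peak of 1 library. In the region 160 names (63.2%) came from paclitaxel-resistant, 75 (29.6%) from dual-resistant, 18 (7.11%) from cisplatin-resistant and 0 from control libraries, against 23.0%, 39.5%, 34.3% and 3.18% over all peaks. In the first stretch 60 of 65 names (92.3%) were from paclitaxel-resistant libraries. The part of this in the differences was not tested.

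EPHA3 was set beside the other Eph receptors and ephrins, a list of 22 genes. Of these, 21 had a peak at their start, or at an end of the span for EPHA10 and EFNB3, which have no listed start. In cisplatin-resistant against control cells, 2 of 21 rose, EPHA3 and EPHB1 (0.49), and 7 fell, among them EPHA10 (-1.73), EPHA6 (-0.83) and the ephrin genes EFNA3 (-0.79) and EFNA5 (-0.76). Over all protein-coding gene starts 10.6% rose and 28.9% fell, and the medians were -0.16 for the list and -0.19 for all starts. In dual-resistant cells 2 rose, EPHA3 and EPHB3 (0.26), and 2 fell, EPHA7 (-1.26) and EPHA10 (-1.19), where 4.55% of all starts rose and 15.3% fell (medians -0.16 and -0.14). Against cisplatin-resistant cells, 6 rose and 2 fell in dual-resistant cells, where 19.3% rose and 16.9% fell over all starts (0.13 and 0.05). In paclitaxel-resistant cells, 4 were higher, EPHA3, EPHB4 (0.79), EFNB2 (0.50) and EPHB3 (0.26), and 2 lower, EPHA6 (-1.41) and EPHB1 (-0.49), where 13.0% of all starts were higher and 9.84% lower (-0.05 and 0.01). The place of EPHA3 among the members in the comparisons with control draws on the libraries that selected the region. EPHB4 gave 29.2 and 26.9 CPM in control and 45.2 and 52.8 CPM in paclitaxel-resistant libraries. EPHA6, also on chromosome 3, was at 13.3 and 14.2 CPM in control and 4.61 and 5.06 CPM in paclitaxel-resistant libraries. Several of these shares lie near those over all gene starts, and nothing particular to the family is read from them.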

How the data were processed

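The 8 ATAC-seq libraries of A2780 cells form 4 groups of 2. The deposited matrix holds CPM values for 159451 peaks of 1001 bp, scaled by the authors to the reads in peaks of each library. Bowtie2, Picard and MACS2 are named with hg38 in the submitters' processing notes; their versions, any shift for the Tn5 cut site and the merging of peaks are not stated in those notes or the labels. Every value was a whole number of reads (100% within 0.01 read). The 158698 peaks that reached 1 CPM in 2 or more libraries were fitted as log2(CPM + 0.5) with limma 3.58.1 (R 4.3.3), all groups together, with the prior variance following the mean level (residual df 4, prior df 98.5). Calls have p under 0.05 after Benjamini-Hochberg adjustment across all these peaks. SEs therefore come mostly from the trend over all peaks. The count test edgeR 4.0.16 on recovered reads, other pseudocounts (1 and 0.1), no filter, median-ratio and quantile scaling, the median of chromosome 3 subtracted, a replicate block and leaving out each library were alternatives. The method was tested on simulated data.

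The members and lists were chosen with earlier results of these data known. The planned edge search, outward from the middle of the region, gave no stretch and was replaced by runs of the running median over 15 peaks. Named peaks were the strongest peak within 1 kb of each protein-coding start (either end where no start is listed), the 5 strongest peaks, the 5 highest and 5 lowest paclitaxel-resistant differences, the 3 largest calls per direction in each other comparison and the 3 peaks on each side of each bound. Gene spans, starts and promoter sequences are RefSeq's; no entry of starts was found for CADM2, ZNF654, CGGBP1 and C3orf38. Replicate numbers do not pair libraries (correlations of their deviations from -0.000587 to 0.00332).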

Additional observations from a re-analysis of the deposited data

Results flagged for a closer look

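In the first stretch every cisplatin-resistant library lay below and every paclitaxel-resistant library above both control libraries, with ratios of mean CPM to control of 0.781 and 11.5. At the VGLL3 start the ratio was 1.25 in cisplatin-resistant and 4.70 in paclitaxel-resistant cells, both above control in each library, and 0.694 in dual-resistant cells, below control in each library. At CHMP2B cisplatin-resistant libraries lay below control (0.843) and paclitaxel-resistant libraries above (1.31). At POU1F1 the ratio was 4.93 in paclitaxel-resistant cells, and 0.680 in cisplatin-resistant and 0.453 in dual-resistant cells, whose libraries did not exceed those of control. These opposite movements were noted from the direction of every library, and the difference was not tested. No group has the 4 libraries that a check for outlying libraries needs.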

How the results depend on the processing

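Over the region, peaks called lower in cisplatin-resistant than in control cells numbered 14, but 9 under median-ratio scaling, 24 under quantile scaling and 28 with the chromosome 3 median subtracted. The median difference there went from -0.12 to -0.27 under quantile scaling and to -0.27 with that subtraction, and over the fits without 1 library it ranged from -0.14 to 0.0073, turning positive without control replicate 2 (0.0073) and without cisplatin-resistant replicate 1 (0.00684). For dual-resistant against control cells the 2 lower peaks became 1 with a pseudocount of 0.1 and 4 under median-ratio scaling, with edgeR and with the chromosome 3 median subtracted. The median of 0.43 became 0.34 with a pseudocount of 1, 0.61 with 0.1, 0.35 under quantile scaling, 0.53 with edgeR and 0.24 with the chromosome 3 median subtracted. For dual- against cisplatin-resistant cells the median of 0.50 became 0.39 with a pseudocount of 1, 0.69 with 0.1 and 0.37 under median-ratio scaling. The paclitaxel-resistant median of 1.57 became 1.26, 1.99, 1.69, 1.74, 2.19 and 1.75 with a pseudocount of 1, of 0.1, median-ratio scaling, quantile scaling, edgeR and the chromosome 3 median subtracted. Without 1 library, higher and lower peaks ranged from 24 to 38 and 10 to 15 in cisplatin-resistant, 44 to 69 and 0 to 2 in dual-resistant, and 122 to 160 and 1 to 4 in paclitaxel-resistant against control cells, and from 53 to 84 and 11 to 16 in dual- against cisplatin-resistant cells. The medians of the last 3 comparisons then ranged from 0.43 to 0.55, from 1.54 to 1.60 and from 0.50 to 0.58. In dual- against cisplatin-resistant cells, higher peaks of the first, the second and the third stretch ranged from 4 to 9, 3 to 6 and 30 to 50 without 1 library. The first raised peak, at 85.82 Mb, moved to 85.96 Mb with a running median over 7 peaks, to 85.59 Mb at 0.25 times the median, and to at most 85.93 Mb without 1 library. The last raised peak, at 90.09 Mb, moved less: to 90.18 Mb with a running median over 7 peaks, and it was at 90.09 Mb in the other settings.

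The 84 results here are those of named peaks, and the lower counts and medians of the stretches in dual- against cisplatin-resistant cells. Of their 1344 values, 1192 were the same. At tested peaks that means direction and side of the threshold were kept. For paclitaxel-resistant differences and stretch medians it means a shift within the spread of the libraries, and for stretch counts a similar count. At tested peaks 55 lost and 16 gained a call, 74 values without a test moved and 7 changed sign. Those 7 were small: CHMP2B in dual-resistant against control cells (-0.035 with the chromosome 3 median subtracted, -0.024 without dual-resistant replicate 2), ZNF654 in cisplatin-resistant cells (0.011 under median-ratio and 0.0014 under quantile scaling), and C3orf38 in dual-resistant against control (0.093 under quantile scaling, 0.014 without dual-resistant replicate 2) and against cisplatin-resistant cells (-0.000959 under median-ratio scaling). The cause was not tested. With the replicate number as a block, which the data do not support as a pairing, higher and lower peaks were 38 and 15, 68 and 2, 82 and 16, and 160 and 3 in cisplatin-resistant, dual-resistant, dual- against cisplatin-resistant and paclitaxel-resistant cells, with 50 higher in the third stretch. The stretches and the values before, between and within them were defined after the data were seen. Peaks near 3 reads per library limit the folds of the weakest peaks.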
